A study of Glycine max with 16 samples.

Results

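Transcripts of 1 Rubisco small chain locus (Glyma.13G046200) and 3 Rubisco large subunit binding protein loci (Glyma.11G195900, Glyma.15G250500 and Glyma.20G019400) were followed through the day in field-grown soybean leaflets. These 4 loci were taken by their row identifiers from a table of read counts for 56044 genes, and all 4 were among the 36059 genes that had at least 8 counts in at least 1 library. The names come from the study, which singled out the 3 binding protein loci as differentially expressed (DE) in these same libraries, so their DE calls are not independent evidence. Their identifiers place the loci on chromosomes 13, 11, 15 and 20, and start and end positions were not used here.

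All 16 libraries came from field plots of 1 soybean cultivar, 93B15, during seed fill, with no treatment and no mutant. Leaflets were harvested at 8:00, 11:00, 14:00 and 17:00, with 4 libraries for each time point. Each library combined the leaflets of an uppermost, fully expanded leaf, and it stood for 1 of 4 field plots. A plot was sampled through 1 day and every plot had its own day, so plot and day cannot be told apart.

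Rubisco fixes CO2 in the chloroplast, and its holoenzyme is built from large and small subunits. The small subunit is encoded in the nucleus by a gene family, translated in the cytosol and imported, whereas the large subunit is encoded by the plastid genome. Newly made large subunits are folded inside the chloroplast by the large subunit binding protein, a chaperonin built of alpha and beta type subunits that works with co-chaperonins, before they join small subunits. Which of the 3 binding protein loci are alpha or beta type was not stated in the study and was not looked up elsewhere. The libraries were made from polyadenylated RNA, so the plastid-encoded large subunit was not measured.

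Counts assigned to genes ranged from 14968570 to 25691784 per library (median 21411331). Abundance is given as CPM, read counts brought to a common library size, with library totals scaled by TMM (trimmed mean of M values), whose factors ran from 0.896 to 1.00 at 8:00, from 0.803 to 1.08 at 11:00, from 0.940 to 1.16 at 14:00 and from 1.07 to 1.17 at 17:00. Scaling by library totals alone moved the median of all genes to 0.33 on the log2 scale at 17:00 against 8:00, where it was 0.06 with TMM. CPM is not corrected for gene length, so levels are compared here between times and plots of a gene and not between genes. In whole leaflets, fewer cells of a type and less RNA per cell cannot be told apart. As a check of the labelled leaf tissue, the chlorophyll a/b binding protein locus Glyma.08G082900 lay between 1383 and 11148 CPM. The 11 such loci held in the annotation differed widely, and Glyma.02G080800 lay between 0.137 and 5.66 CPM.

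The small chain and the binding proteins took different courses. Small chain transcript abundance was highest on average at 11:00 and fell in the afternoon, while all 3 binding protein transcripts were lowest at 8:00 in every plot and had their highest mean at 14:00. The plot of abundance by time of day shows each library.

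**Figure D1:**
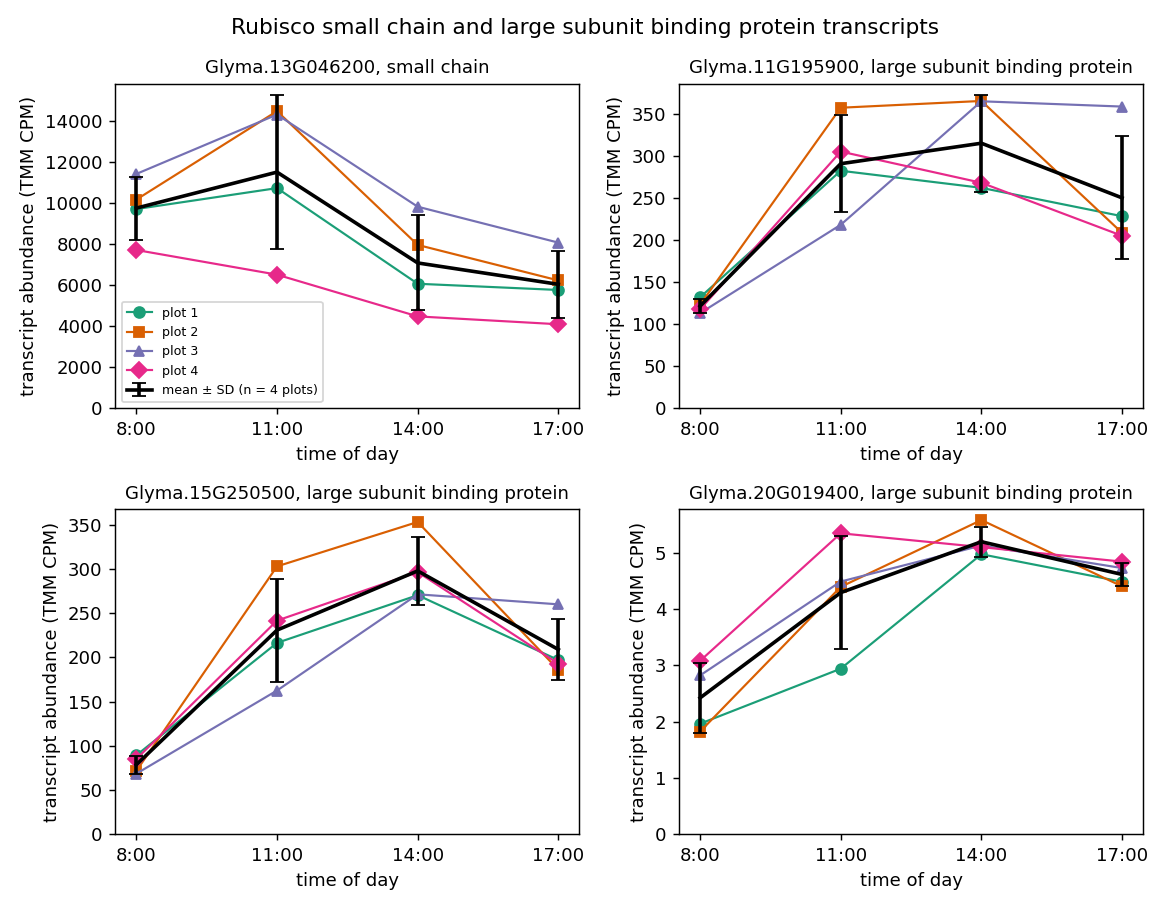
Transcript abundance (TMM CPM, vertical axis from 0) of each of the 4 loci at 8:00, 11:00, 14:00 and 17:00, with a coloured line for each plot and a black line for the mean ± SD (n = 4 plots). The small chain was lowest at 17:00 in 4 of 4 plots and each binding protein was lowest at 8:00 in 4 of 4 plots.

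Glyma.13G046200, the small chain locus, reached 9719.9, 10181, 11431 and 7724 CPM in plots 1, 2, 3 and 4 at 8:00, and 10741, 14491, 14325 and 6522 CPM in the same plots at 11:00. At 14:00 it stood at 6079, 7972, 9835 and 4488 CPM, and at 17:00 at 5776, 6241, 8084 and 4105 CPM. Plots 1, 2 and 3 were highest at 11:00 and plot 4 at 8:00, and the ranges of the time points overlapped because the plots lay far apart. The means were 9764 ± 1540.2 CPM at 8:00, 11519.8 ± 3754 CPM at 11:00, 7093 ± 2317 CPM at 14:00 and 6052 ± 1636 CPM at 17:00 (SD, n = 4 each). This single locus took an average of 0.899%, 1.03%, 0.736% and 0.678% of all counts at the 4 successive time points. Reads shared with near-identical copies of the small chain gene could have been split or dropped in counting, so its level is uncertain to that extent.

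In edgeR's quasi-likelihood test with plot as a block, small chain abundance differed over the 4 time points (Benjamini-Hochberg adjusted p = 0.00137). Over all genes, 54.4% passed this test, so passing it does not set the locus apart. The largest difference between any pair of time points was 0.91 on the log2 scale, under the log2 difference of 1 that is also required for a DE call, and it did not reach 1 in any of 13 settings (range 0.61 to 0.99). The 3 binding protein loci did reach it, so 3 of the 4 loci were DE over the day, where 33.8% of all genes were. At 17:00 the log2 fold change was -0.91 ± 0.17 (SE) against 11:00 (edgeR adjusted p = 0.00111) and -0.72 ± 0.17 against 8:00 (adjusted p = 0.00300), lower in 4 of 4 plots each time. At 14:00 it was -0.70 ± 0.17 against 11:00 (adjusted p = 0.0158) and -0.51 ± 0.17 against 8:00 (adjusted p = 0.0269), also lower in 4 of 4 plots. The morning difference, 11:00 against 8:00, was 0.18 ± 0.17 and did not pass (adjusted p = 0.492), with 3 of 4 plots higher.

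Most of these afternoon decreases of the small chain depended on the plot block. Without it, the adjusted p was 0.0879 over the 4 time points, 0.0997 for 17:00 against 8:00, 0.292 for 14:00 against 8:00 and 0.223 for 14:00 against 11:00 (edgeR). The decrease at 17:00 against 11:00 passed in each of the 12 alternatives, with 0.0477 as its highest adjusted p in edgeR, DESeq2, limma and the linear model. Its size depended on scaling, with a log2 fold change of -0.61 with library totals alone. The decrease at 17:00 against 8:00 was likewise smaller with library totals alone, at -0.45, and kept its call. The decrease at 14:00 against 8:00 also lost its call without plot 1 (log2 fold change -0.46), without plot 4 (-0.42) and with library totals alone (-0.33), and that against 11:00 without plot 1 (-0.66), plot 2 (-0.65) or plot 3 (-0.77).

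Glyma.11G195900, a large subunit binding protein locus, gave 132, 123, 113 and 118 CPM in plots 1 to 4 at 8:00 and 282, 357, 218 and 305 CPM at 11:00. It then gave 262, 365, 365 and 268 CPM at 14:00 and 228, 208, 358 and 205 CPM at 17:00. Every library from 11:00 onward lay above every 8:00 library. The mean was 290.5 ± 57.6 CPM at 11:00, 315 ± 57.7 CPM at 14:00 and 250.0 ± 72.9 CPM at 17:00, against 121 ± 8.11 CPM at 8:00 (SD, n = 4 each). Against 8:00, the log2 fold change was 1.26 ± 0.20 at 11:00 (edgeR adjusted p = 0.000540), 1.36 ± 0.20 at 14:00 (adjusted p = 9.26e-05) and 1.03 ± 0.20 at 17:00 (adjusted p = 0.000674). Among the 3 later time points no difference passed. The log2 fold change was 0.10 ± 0.20 at 14:00 against 11:00 (edgeR adjusted p = 0.799), -0.23 ± 0.20 at 17:00 against 11:00 (adjusted p = 0.405) and -0.33 ± 0.20 at 17:00 against 14:00 (adjusted p = 0.288), the last lower in 4 of 4 plots.

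The plots disagreed on the hour of the maximum of Glyma.11G195900, which was 11:00 in plots 1 and 4 and 14:00 in plots 2 and 3. Plot 3 was the lowest of the 4 at 11:00 and the highest at 17:00. With plot 3 left out, the 17:00 against 11:00 log2 fold change was -0.60 and passed (edgeR adjusted p = 0.0188), and the 14:00 against 11:00 value turned to -0.10.

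Glyma.15G250500, another large subunit binding protein locus, had the widest daily range of the 4. It gave 89.3, 71.6, 68.5 and 85.1 CPM in plots 1 to 4 at 8:00 and 216, 303, 163 and 242 CPM at 11:00. It stood at 270.3, 353, 271 and 296 CPM at 14:00, the maximum in each plot, and at 197, 186, 260.0 and 193 CPM at 17:00. The 8:00 libraries lay below all others, and the 17:00 libraries lay below all 14:00 libraries. The mean was 231 ± 58.3 CPM at 11:00, 298 ± 38.8 CPM at 14:00 and 209 ± 34.3 CPM at 17:00, against 78.6 ± 10.1 CPM at 8:00 (SD, n = 4 each).

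Against 8:00, the log2 fold change of Glyma.15G250500 was 1.54 ± 0.19 at 11:00 (edgeR adjusted p = 8.30e-05), 1.91 ± 0.19 at 14:00 (adjusted p = 2.79e-06) and 1.42 ± 0.19 at 17:00 (adjusted p = 2.21e-05). The 14:00 level was thus 3.77-fold the 8:00 level, and 8.16% of the genes tested had a smaller adjusted p over the 4 time points. The decline after 14:00 was -0.49 ± 0.18 on the log2 scale at 17:00 against 14:00 and missed the threshold (edgeR adjusted p = 0.0896), although all 4 plots were lower. Without plot 3, which fell least, it was -0.70 and passed (adjusted p = 0.0272). At 14:00 against 11:00 the value was 0.38 ± 0.18, higher in 4 of 4 plots (adjusted p = 0.205), and with library totals alone it was 0.58 and passed (adjusted p = 0.0372).

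Glyma.20G019400, the remaining binding protein locus, was counted far less, with 35 to 148 counts per library. It gave 1.96, 1.82, 2.82 and 3.08 CPM in plots 1 to 4 at 8:00 and 2.94, 4.39, 4.49 and 5.34 CPM at 11:00. The values were 4.97, 5.58, 5.12 and 5.10 CPM at 14:00 and 4.48, 4.40, 4.72 and 4.84 CPM at 17:00. Plot 1 at 11:00 was within the 8:00 range, while every 14:00 and 17:00 library was above it. Counting alone left the lowest library, plot 2 at 8:00, between 1.27 and 2.53 CPM and the highest, plot 2 at 14:00, between 4.56 and 6.76 CPM (95% exact Poisson intervals, counting error only).

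The mean of Glyma.20G019400 was 4.29 ± 0.997 CPM at 11:00, 5.19 ± 0.265 CPM at 14:00 and 4.61 ± 0.205 CPM at 17:00, against 2.42 ± 0.622 CPM at 8:00 (SD, n = 4 each). The log2 fold change against 8:00 was 0.83 ± 0.18 at 11:00 (edgeR adjusted p = 0.00485), 1.12 ± 0.18 at 14:00 (adjusted p = 0.000196) and 0.95 ± 0.18 at 17:00 (adjusted p = 0.000570), higher in 4 of 4 plots each time. The differences among later time points did not pass, with 0.29 ± 0.18 at 14:00 against 11:00, 0.12 ± 0.18 at 17:00 against 11:00 and -0.17 ± 0.17 at 17:00 against 14:00 (adjusted p from 0.312 to 0.653). The largest difference reached a log2 value of 1 in 12 of 13 settings and was 0.97 without plot 2.

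Set beside all genes tested, the calls of the 4 loci read as follows. At 11:00 against 8:00, 3 of 4 loci were higher, where 12.4% of all genes were called higher. At 14:00 against 8:00, 3 were higher and 1 lower, where 22.4% of all genes were higher and 21.1% lower. The same split held at 17:00 against 8:00, with 27.1% of all genes higher and 23.8% lower. Where a log2 fold change of 1 or more was also required, the loci called higher against 8:00 numbered 2 at 11:00, 3 at 14:00 and 2 at 17:00, where 5.46%, 12.2% and 15.6% of all genes were, and Glyma.20G019400 was the one below it at 11:00 and 17:00. At 17:00 Glyma.11G195900 passed this limit narrowly, with 1.03, and it was under it with DESeq2 (0.98), with DESeq2 size factors (0.98) and without plot 3 (0.72), which left 1 locus. In the other direction, Glyma.20G019400 passed this limit at 17:00 with library totals alone (1.22) and without plot 4 (1.05). All 3 binding proteins passed it in those settings. The small chain alone was called, as lower, at 14:00 against 11:00, where 6.72% of all genes were lower and 7.33% higher, and at 17:00 against 11:00, where 15.9% were lower and 17.5% higher. At 17:00 against 14:00 edgeR called 0 of 4, with 1 at an unadjusted p under 0.05 and 0 by DESeq2, by limma and by the linear model, where 6.38% of all genes were called higher and 8.2% lower.

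**Figure D2:**
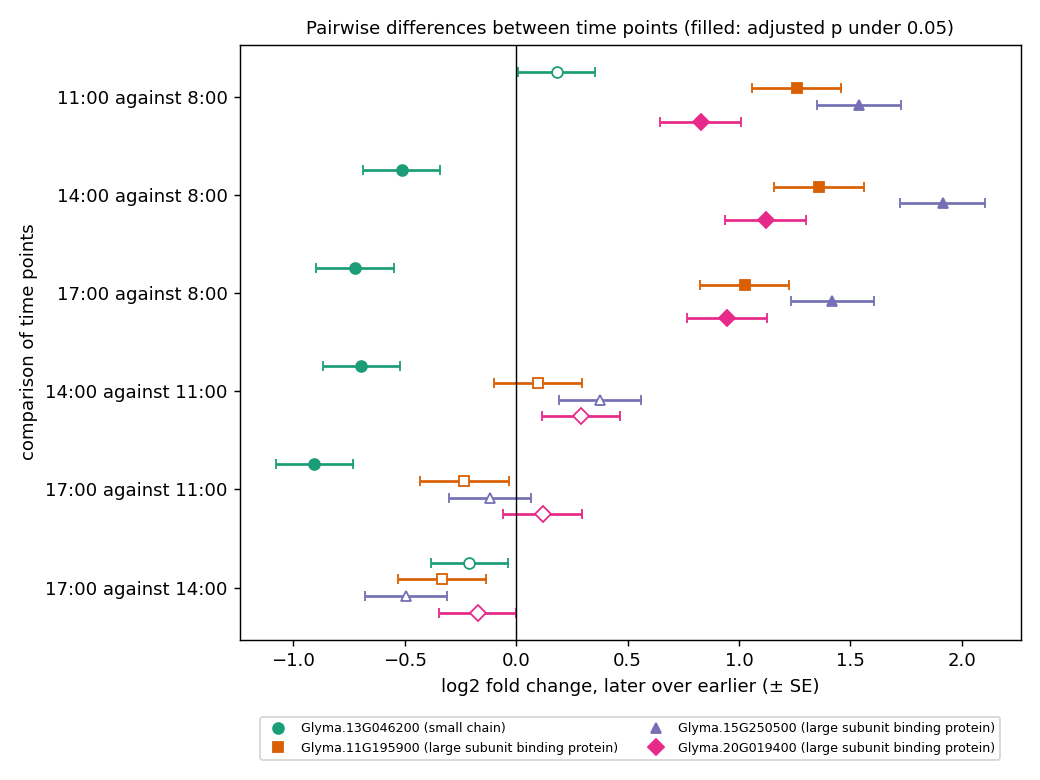
Log2 fold change of the later over the earlier time point (horizontal axis, ± SE from the edgeR fit) for the 4 loci in the 6 pairs of time points, with filled symbols where the adjusted p was under 0.05. Against 8:00 all 3 binding proteins lay between 0.83 and 1.91, while the small chain lay at -0.51 at 14:00 and -0.72 at 17:00.

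Ratios of counts within a library do not depend on how libraries are scaled, so they test directly whether a pair of loci took the same course. An exact permutation test, with time labels exchanged within plots (13824 arrangements), was run on the log2 ratio of each of the 6 pairs and adjusted over them. It asks whether a ratio differed anywhere among the 4 time points, and single shifts between a pair of time points were not tested on their own. The ratio of each binding protein to the small chain differed over the day (adjusted exact permutation p = 0.000543 for each of the 3 pairs). The log2 ratio was higher at 14:00 than at 8:00 by 2.43 ± 0.22 for Glyma.15G250500, by 1.87 ± 0.14 for Glyma.11G195900 and by 1.63 ± 0.43 for Glyma.20G019400 (SD over 4 plots, higher in 4 of 4 plots). At 17:00 the ratios to the small chain were still higher than at 8:00 by 2.12 ± 0.22 for Glyma.15G250500, 1.72 ± 0.31 for Glyma.11G195900 and 1.67 ± 0.34 for Glyma.20G019400.

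The binding proteins also differed among themselves. Counts of Glyma.15G250500 per count of Glyma.11G195900 averaged 0.647, 0.788, 0.963 and 0.855 at the 4 successive time points, and this ratio differed over the day (adjusted exact permutation p = 0.000543). At 14:00 against 8:00 the log2 shift was 0.56 ± 0.19 (SD, 4 of 4 plots higher). In plot 3 this ratio was 0.606 at 8:00, 0.746 at 11:00, 0.744 at 14:00 and 0.726 at 17:00, so it did not climb after 11:00 there. The ratio of Glyma.15G250500 to Glyma.20G019400 differed over the day too (adjusted exact permutation p = 0.0337), with a log2 shift of 0.80 ± 0.39 at 14:00 against 8:00 (SD, 4 of 4 plots higher). The test over the day no longer passed without plot 1 (adjusted exact permutation p = 0.0646), plot 2 (0.156) or plot 4 (0.194). Between Glyma.20G019400 and Glyma.11G195900 no difference in course over the day was detectable with these libraries (adjusted exact permutation p = 0.399). The log2 shift at 14:00 against 8:00 was -0.24 ± 0.52 there. At 11:00 against 8:00 it was -0.42 ± 0.16, with 0 of 4 plots higher, and at 17:00 against 8:00 it was -0.06 ± 0.65 (SD).

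**Figure D3:**
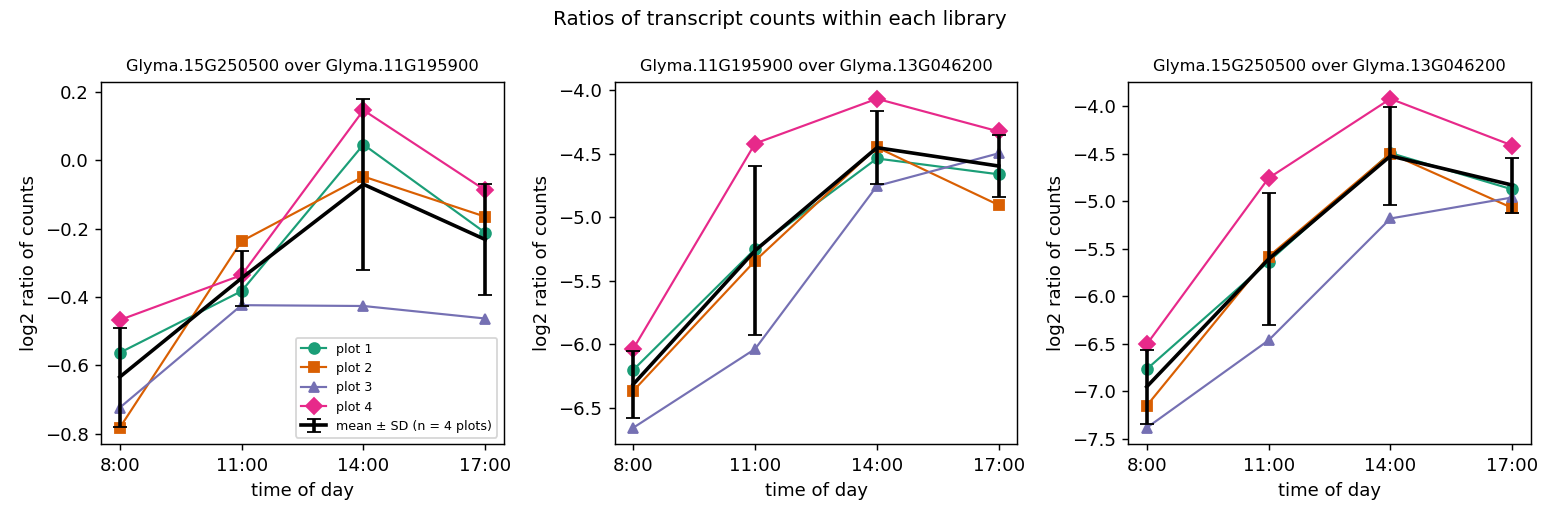
Log2 ratio of counts within each library (vertical axis) against time of day for Glyma.15G250500 over Glyma.11G195900 and for each of these over the small chain Glyma.13G046200, with a coloured line for each plot and a black line for the mean ± SD (n = 4 plots). All 4 plots were higher at 14:00 than at 8:00 in the 3 panels, and plot 3 stayed flat after 11:00 in the first.

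Small chain abundance also varied among plots. Plot 4 had the lowest small chain abundance at 4 of 4 time points, averaging 5710.0 ± 1711 CPM over the day, against 9573 ± 2932 CPM in plots 1 to 3 (SD over libraries). The log2 difference was -0.73 ± 0.15 (SE, edgeR adjusted p = 0.00727), or 0.604-fold, where 5.28% of all genes were called lower in plot 4 and 4.21% higher. Plot 4 is a single plot on 1 day, and the SE and p rest on its 4 libraries taken at different hours, so they do not speak for the spread between plots. The test over all 4 plots also passed (edgeR adjusted p = 0.0149), as it did for 10.3% of all genes. It no longer passed without plot 4 (adjusted p = 0.252) or without plot 3 (adjusted p = 0.0680). The study marked this locus as a moderate outlier for variation among replicates in these libraries, so the plot result is not independent of that choice.

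For the binding proteins the plot 4 difference did not pass in the same fit. Plot 4 minus plots 1 to 3 was -0.15 ± 0.16 on the log2 scale for Glyma.11G195900 (edgeR adjusted p = 0.622), 0.03 ± 0.15 for Glyma.15G250500 (adjusted p = 0.944) and 0.25 ± 0.14 for Glyma.20G019400 (adjusted p = 0.312). Glyma.20G019400 was highest in plot 4 at 3 of 4 time points. Whether the plot effect itself differed between the small chain and the binding proteins was not tested. Plot 4 also held the largest library, 25691784 counts at 11:00.

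Across the 16 libraries the log2 abundances of Glyma.11G195900 and Glyma.15G250500 followed each other most closely (Pearson r = 0.96), and r was 0.92 with time and plot means removed. With Glyma.20G019400, r was 0.85 for Glyma.15G250500 and 0.78 for Glyma.11G195900, but 0.23 and 0.05 once time and plot means were removed. The small chain gave r of -0.07 with Glyma.11G195900, -0.27 with Glyma.15G250500 and -0.40 with Glyma.20G019400. With time and plot means removed, r was 0.43, 0.50 and 0.07 in the same order, so the sign turned for each pair. These are descriptions over 16 libraries that share 4 plots and 4 time points, and each library's scaling enters both members of a pair.

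Among 28598 genes with a mean of at least 1 CPM, the 3 genes with the highest Pearson r over the 16 libraries were taken for each locus. Gene descriptions for them were not held, and only identifiers are given. For the small chain these were Glyma.19G046800 (r = 0.987), Glyma.19G046600 (r = 0.985) and Glyma.17G147900 (r = 0.961). All 3 had their highest mean at 11:00 and, like the small chain, were lowest in plot 4 at 4 of 4 time points. Choosing genes by r over these same libraries favours such likenesses, here and for the other loci, so they are not separate evidence. Glyma.19G046800 averaged 11115, 13191, 8512 and 7541 CPM at the 4 successive time points and Glyma.19G046600 averaged 11168, 13498, 8729 and 7717 CPM.

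Glyma.11G195900 and Glyma.15G250500 each ranked 2 in the other's list. The other genes closest to Glyma.11G195900 were Glyma.16G002500 (r = 0.962), with mean values of 248, 602, 582 and 491 CPM, and Glyma.16G088000 (r = 0.940). Closest to Glyma.15G250500 were Glyma.02G305600 (r = 0.974) and Glyma.14G007700 (r = 0.961), which were highest at 14:00 as well. For Glyma.20G019400 they were Glyma.07G135200 (r = 0.962), Glyma.10G023300 (r = 0.960) and Glyma.05G194700 (r = 0.958), all highest at 14:00. Ranked by Spearman's rho instead, 2 of 3 genes stayed in the top 3 for the small chain and for Glyma.11G195900, and 0 of 3 for the other two loci.

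**Figure D4:**
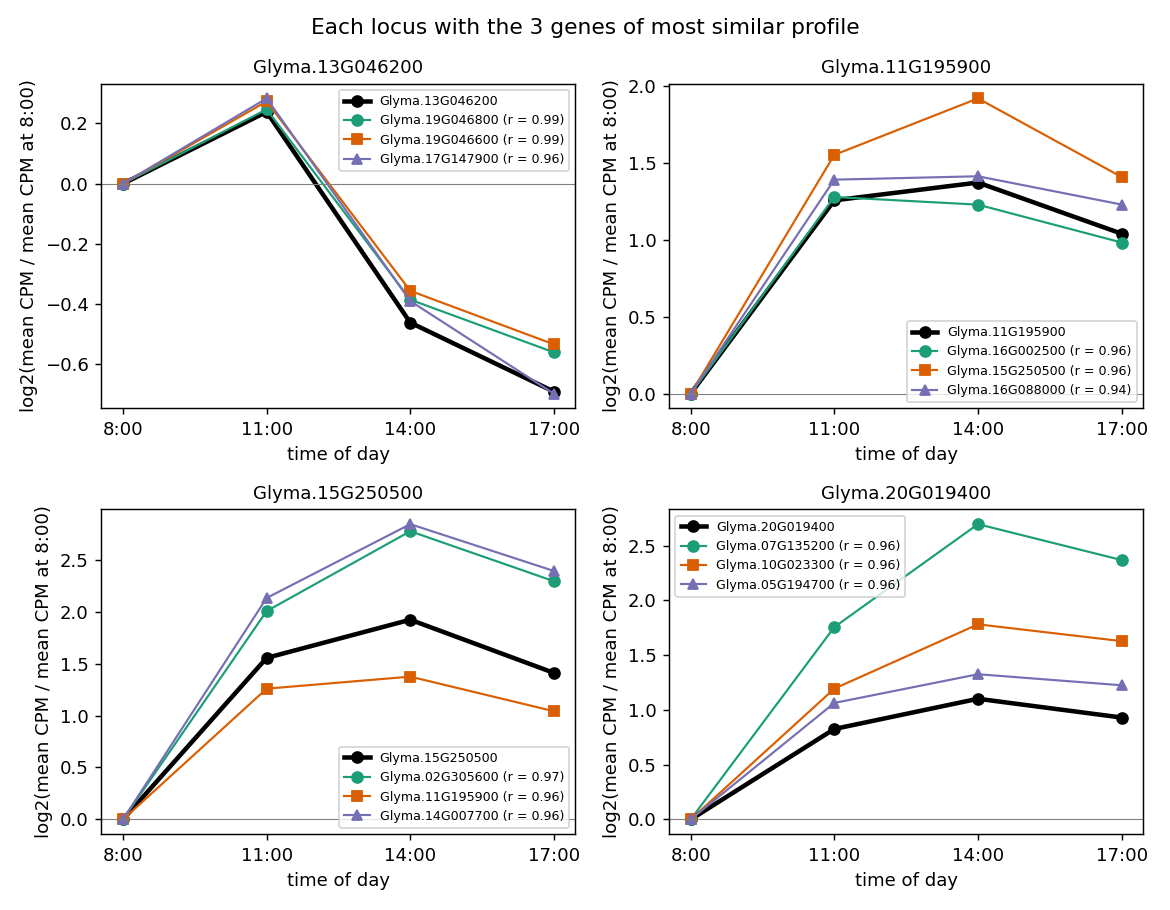
Log2 of the mean CPM at each time of day over the mean at 8:00 (vertical axis) for each of the 4 loci, in black, and for the 3 genes with the highest Pearson r over the 16 libraries, in colour. The genes nearest the small chain peak at 11:00, and those nearest Glyma.15G250500 and Glyma.20G019400 peak at 14:00. They were chosen for a similar profile over these libraries, so a shared peak hour is not separate evidence.

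Other genes of the Rubisco and chaperone system were sought by their descriptions in the annotation held, 931 loci that the study had marked as moderate (669) or extreme (262) outliers for variation among replicates. That choice was made on these libraries, so counts over plots in these lists are not independent evidence. Of 15 lists, 10 matched no locus there, among them Rubisco activase, co-chaperonins and other assembly factors, which were not analysed here. RuBisCO-associated protein matched 4 loci, whose adjusted p over time lay between 0.0845 and 0.978 (edgeR). Its abundant locus, Glyma.01G142400, averaged 2149.7 ± 822, 2979 ± 1521, 3431 ± 2024 and 3834 ± 2102 CPM at the 4 successive time points (SD, n = 4 each). The libraries of this locus ranged from 891 to 6306 CPM.

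Small heat shock proteins, which bind unfolded proteins, matched 3 loci, of which 1 passed over time (54.4% of all genes). That was Glyma.06G054700 (edgeR adjusted p = 0.000722). Its means were 0.658 ± 0.411, 5.16 ± 5.62, 2.03 ± 1.57 and 0.346 ± 0.259 CPM at the 4 successive time points (SD, n = 4 each). The plots differed widely, with means over the day of 0.520, 4.38, 0.884 and 2.40 CPM in plots 1 to 4. Neither 14:00 nor 17:00 passed against 8:00 (edgeR adjusted p = 0.0922 and 0.170). Chlorophyll a/b binding proteins, the light-harvesting antenna, matched 11 loci, of which 10 passed over time, as 54.4% of all genes did. At 14:00 against 8:00, 9 of the 11 were higher (22.4% of all genes) with a median log2 fold change of 1.49. At 17:00 against 8:00, 7 were higher and 1 lower (27.1% and 23.8% of all genes) with a median of 1.03, where the small chain had -0.51 and -0.72. The test over plots passed for 11 of 11 antenna loci (10.3% of all genes), each lower in plot 4 (5.28% of all genes), as the small chain was. These loci and the small chain were all held because they varied among replicates in these libraries. The plot calls are therefore favoured by that choice and are not independent evidence of a shared trait. The part of the antenna loci in the small chain result was not tested.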

How the data were processed

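Poly(A) RNA was sequenced from 16 leaflet libraries, 4 time points by 4 plots. The deposited values are raw read counts per gene, whole numbers that the authors obtained by trimming reads with Trimmomatic, aligning them with TopHat and counting with HTSeq. The submitters' processing notes also name CASAVA 1.8.2. Whether counting used strand was not stated, so overlapping and antisense genes cannot be told apart, and near-identical copies can share reads. Columns were matched to samples by name, with 0 left over. The depth per library, given in the report, leaves abundances of a few CPM with wide counting intervals.

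Genes with at least 8 counts in at least 1 library were kept. Counts were fitted in edgeR 4.0.16 (R 4.3.3) by the quasi-likelihood test with TMM factors, time point and plot as terms, and Benjamini-Hochberg adjustment over 36059 genes. A call is an adjusted p under 0.05. SEs were computed from the fold change and the F statistic. Alternatives were DESeq2 1.42.0, limma 3.58.1 (voom), a linear model on log2(TMM), other scalings and filters, no plot block and each plot left out. Ratios had 1 added to each count. In data simulated for 14:00 against 8:00 over 35112 genes, 54% of genes changed by a log2 value of 1 and 95% changed by 2 were recovered, with 4 false calls. The simulation held no plot differences and changed 200 genes, where 8073 were called higher and 7603 lower in the data. Its recovery and false calls therefore need not hold for the data. Plot numbers paired the samples because the treatment protocol in the labels gives each plot its own day. Libraries of a plot at different times had a median r of 0.242 between their deviations from time means, against -0.0703 for different plots, and 15 of 16 matched their own plot best. The lowest chi-square per gene between libraries of a time point was 17.7, so none was counted as a copy.

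The loci and lists were chosen with earlier results of these data known. Genes named are the 4 loci, the 3 nearest by Pearson r for each, and list genes matched by description, with at most 3 per list of smallest adjusted p over time, plus the most abundant where it was discussed. With plot as a term, time p-values rest on the spread left within plots, and plot p-values take the libraries of a plot at different hours as replicates.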

Additional observations from a re-analysis of the deposited data

Results flagged for a closer look

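At 17:00, plot 3 stood far above the other 3 plots for a pair of binding protein loci. It held 358 CPM of Glyma.11G195900, with a gap to the nearest other value that was 0.848 of the whole range, and 260.0 CPM of Glyma.15G250500, with a gap of 0.850 of the range. Both gaps exceed Dixon's 95% critical value for 4 samples. The 4 loci at 4 time points gave 16 groups, and chance flags about 1 in 20 groups. Both flags fall in 1 library and in loci that followed each other closely (r = 0.92 with time and plot means removed). They therefore do not count as separate flags. The same library had 21297712 counts and a TMM factor of 1.10, inside the range of the other 17:00 libraries for the factor and for depth. Glyma.20G019400, at 4.72 CPM there, did not stand apart.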

How the results depend on the processing

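Of 659 values recomputed under the alternatives, 599 kept direction and side of the threshold or, for counts, stayed within 1.5 times. Without the plot block, the small chain kept its call at 17:00 against 11:00 (edgeR adjusted p = 0.0477) and lost its other calls over time. The log2 values of the lost calls were 0.93 for its largest difference, -0.46 for 14:00 against 8:00, -0.69 for 17:00 against 8:00 and -0.70 for 14:00 against 11:00. No other call on the 4 loci changed. Without the block the genes called at 14:00 against 11:00 numbered 1753 higher and 1299 lower, and 1225 were higher at 17:00 against 14:00. With library totals alone, the small chain at 14:00 against 8:00 was -0.33, Glyma.15G250500 at 14:00 against 11:00 was 0.58 and passed, and signs turned at 17:00 against 11:00 for Glyma.11G195900 (0.0553) and Glyma.15G250500 (0.17) and in plot 4 for Glyma.11G195900 (0.00385). Genes called were then 5691 lower at 17:00 against 8:00, 4678 higher and 1311 lower at 14:00 against 11:00, 11841 higher and 3620 lower at 17:00 against 11:00, and 3819 higher in plot 4. DESeq2 called 6518 genes over plots and the linear model 1645, with 956 higher in plot 4 and 1398 higher at 17:00 against 14:00. By Spearman's rho, 0 of 3 nearest genes stayed for Glyma.15G250500 and 0 of 3 for Glyma.20G019400.

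With each plot left out in turn, the small chain ranged from -0.64 to -0.42 at 14:00 against 8:00 and from -0.77 to -0.65 at 14:00 against 11:00, and its adjusted p over plots from 0.0180 to 0.252. Glyma.11G195900 ranged from -0.10 to 0.20 at 14:00 against 11:00 and from -0.60 to -0.10 at 17:00 against 11:00. Glyma.15G250500 ranged from -0.45 to 0.0428 at 17:00 against 11:00, from -0.70 to -0.39 at 17:00 against 14:00 and from -0.0138 to 0.0934 in plot 4. Glyma.20G019400 ranged from -0.0228 to 0.21 at 17:00 against 11:00, and the log2 ratio of Glyma.15G250500 to Glyma.20G019400 from 0.69 to 0.98. Gene counts ranged from 2817 to 3735 higher and 2212 to 3215 lower (11:00 against 8:00), 1317 to 1914 and 1222 to 1831 (14:00 against 11:00), 934 to 1351 and 1873 to 2357 (17:00 against 14:00), 3956 to 4833 higher (17:00 against 11:00), 613 to 3249 over plots (613 without plot 4), and 997 to 1246 higher and 1258 to 1903 lower in plot 4. The cause of these changes was not tested. Glyma.20G019400 is limited by its 35 to 148 counts per library.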

Other observations

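The spread among plots changed through the day in different ways for the 4 loci. For Glyma.20G019400 the SD among plots was 25.7%, 23.2%, 5.11% and 4.45% of the mean at the 4 successive time points, where counting alone gives an average SD of 14.6%, 11.5%, 9.38% and 9.69%, so the plots at 14:00 and 17:00 lay closer together than counting error alone would give on average. For Glyma.11G195900 the SD was 6.68% of the mean at 8:00 and 19.8%, 18.3% and 29.2% at the later time points. For the small chain it was 15.8% at 8:00 and 32.6%, 32.7% and 27.0% later. With 4 libraries per time point these spreads were not tested against each other.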
